A study of Mus musculus with 20 samples.

Results

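The nuclear-encoded respiratory chain genes of dorsal root ganglia (DRG) are described here across spinal level, sex and library. Members were the protein-coding genes whose symbols begin with Ndufa, Ndufb, Ndufc, Ndufs, Ndufv, Cox4 to Cox8, Uqcr or Atp5, together with Sdha, Sdhb, Sdhc and Sdhd. This rule found 92 gene identifiers with 91 symbols among the 37620 genes of the table, since Ndufb8 was listed under 2 identifiers. Of these, 83 are subunits of complexes I to V and 9 share only the name: the complex I assembly factors Ndufaf1 to Ndufaf4, the supercomplex factor Cox7a2l, the Cox4i1 neighbour Cox4nb, the coupling factor Atp5s, its relative Atp5sl, and Atp5l-ps1, a copy of Atp5l. The libraries came from C57Bl6 mouse embryos at E18.5, with no treatment or transgene named. Ganglia L4-L5 (lumbar DRG) and L6-S1 (sacral DRG) of the same 10 donors, 5 male (M1, M3, M5, M7 and M8) and 5 female (F3, F7, F8, F9 and F10), gave 20 libraries in 4 groups of 5. The numbers that male and female donors share belong to different embryos.

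The respiratory chain sits in the inner mitochondrial membrane. Complex I takes electrons from NADH and complex II from succinate, complex III passes them to cytochrome c, and complex IV reduces oxygen. The proton gradient that complexes I, III and IV build up drives complex V, the ATP synthase. A few subunits of every complex except II are encoded in mitochondrial DNA, and all others are made from nuclear genes and imported. Sensory neurons, with long axons and steady ion pumping, depend heavily on this pathway.

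Expression was measured as log2 RPKM, the log2 of reads per kilobase of gene scaled to library size. The length is that of all annotated exons of a gene, so levels of different genes compare only roughly. Recovered library totals ran from 19403023 to 39257771 reads. Mitochondrial ribosomal RNA took 18.121% (sacral F3) to 61.437% (lumbar M5) of the reads of a library. All 8 sensory neuron markers were past the filter on low values in these whole ganglia, with summed levels of 352 to 1500 RPKM. Skeletal muscle genes were also present, from a mean of -0.053 log2 RPKM (sacral M8) to 4.452 (lumbar F8). In whole ganglia, fewer cells of a type and less RNA per cell cannot be told apart.

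Several members could be counted only in part, because the authors kept uniquely mapped reads. In 14 of the 92 members more than 50% of the transcript also occurs elsewhere in the genome, at 97% identity or more over stretches of 50 bases or more, whereas 66 have no such stretch. The clearest case is Atp5l, subunit g of the ATP synthase, at chr9:44721333-44728825 (mm9, minus strand), and the intronless Atp5l-ps1 at chr7:69621192-69621503 (mm9, plus strand). Both coding sequences have 312 bases and differ at 5 of them, all within the first 150 bases, which are shown with the differing bases in capitals to let the likeness be seen.
Atp5l: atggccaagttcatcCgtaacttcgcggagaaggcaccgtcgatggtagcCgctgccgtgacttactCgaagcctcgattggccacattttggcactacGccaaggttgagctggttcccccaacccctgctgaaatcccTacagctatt
Atp5l-ps1: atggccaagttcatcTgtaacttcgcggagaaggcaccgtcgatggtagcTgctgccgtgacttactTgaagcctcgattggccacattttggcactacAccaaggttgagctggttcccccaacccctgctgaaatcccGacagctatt
Values of either gene are therefore uncertain. Some subunits are very short, and the coding sequences of Cox7c, a subunit of complex IV at chr13:86184421-86186509 (mm9, minus strand), and Atp5e, the epsilon subunit of the ATP synthase at chr2:174286573-174289606 (mm9, minus strand), are shown for their size, with start and stop codons in capitals.
Cox7c: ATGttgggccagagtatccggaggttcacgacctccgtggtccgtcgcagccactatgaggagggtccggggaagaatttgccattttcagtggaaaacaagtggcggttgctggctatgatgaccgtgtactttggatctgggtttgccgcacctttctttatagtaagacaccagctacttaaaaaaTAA
Atp5e: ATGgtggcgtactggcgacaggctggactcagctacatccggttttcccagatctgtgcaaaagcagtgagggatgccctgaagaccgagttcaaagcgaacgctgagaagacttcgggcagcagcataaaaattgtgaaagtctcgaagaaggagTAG
These have 192 and 159 bases, and both genes are taken up again below with the mt-Rnr2 slopes. In Cox7c, 74.1% of the transcript is also found elsewhere, against 0% in Atp5e.

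The members were well expressed. Of the 92, 87 were past the filter, a mean of at least 1 RPKM in at least 1 of the 4 groups. The 78 subunits past it had a median of 3.56 log2 RPKM, from -0.32 (Cox4i2) to 7.93 (Atp5b), against 1.995 over all genes tested. The ATP synthase held both the most abundant member, its catalytic beta subunit Atp5b (253 RPKM on average), and genes near the floor such as Atp5l (1.97 RPKM). Complex IV ranged from Ndufa4 (161 RPKM), a subunit named for complex I but found in complex IV, and Cox8a (92.1 RPKM) down to Cox4i2 (1.10 RPKM). In complex I the order ran from Ndufb9 (93.6 RPKM) to Ndufb4 (1.36 RPKM), and the NADH-oxidising flavoprotein Ndufv1 had 9.09 RPKM. Complexes II and III spanned less, from Sdhd (44.8 RPKM) to Sdhb (11 RPKM) and from Uqcr10 (38.7 RPKM) to Uqcrb (4.42 RPKM). Subunits of 1 complex thus differed in RPKM. Part of this can come from the length used, which exceeds the coding transcript in some members. It is 3146 against 680 bases for the longer Ndufb8 identifier and 4522 against 623 for Ndufb7. How much of the spread is due to length was not tested. For Uqcrb, Ndufb4 and Atp5l, 90.5%, 49.8% and 92.6% of the transcript is also found elsewhere.

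Of the 87 members past the filter, 21 were called lower in sacral than in lumbar DRG and none higher. Among the 78 subunits 18 were called (23.1%), with calls in complexes I, III, IV and V and none in complex II. The estimate of sacral minus lumbar level was below 0 for 85 of the 87 members past the filter, compared with 58.0% of all 14529 genes tested. The median difference was -0.28 (log2), against -0.05 over all genes. In limma's fit with the donor as a block, 21 members passed an adjusted p of 0.05, which is 24.1% of the 87, and every one was lower in sacral DRG. Over all genes 6.73% passed in either direction and 4.03% were lower in sacral DRG. The 21 called members were 19.3% to 49.0% lower, and 8 of them were lower in all 10 donors, 7 in 9 donors and 6 in 8 donors. For no member did the 10 lumbar and the 10 sacral values separate without overlap. The donor counts describe members already called, and neither they nor the overlap have a share over all genes beside them.

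The donor block carried this count. Without the replicate block 1 member passed (Ndufaf2), near the share over all genes (1.06% in either direction, 0.71% lower in sacral DRG). With the donor as a fixed term 15 passed, 11 of them among the 21, against 5.45% of all genes. Leaving out 1 donor gave 6 (without F10) to 22 (without F8) called members, against 2.77% and 11.05% of all genes, with 8 without M5, 9 without M7, 10 without F7, 12 without M1 and 13 without F3. With scaling to all recovered reads 4 of the 87 members passed, all lower in sacral DRG. This is near the 4.45% of all genes called in either direction, while 1.05% of all genes were called lower. Every member called under any of these settings was lower in sacral DRG.

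**Figure D1:**
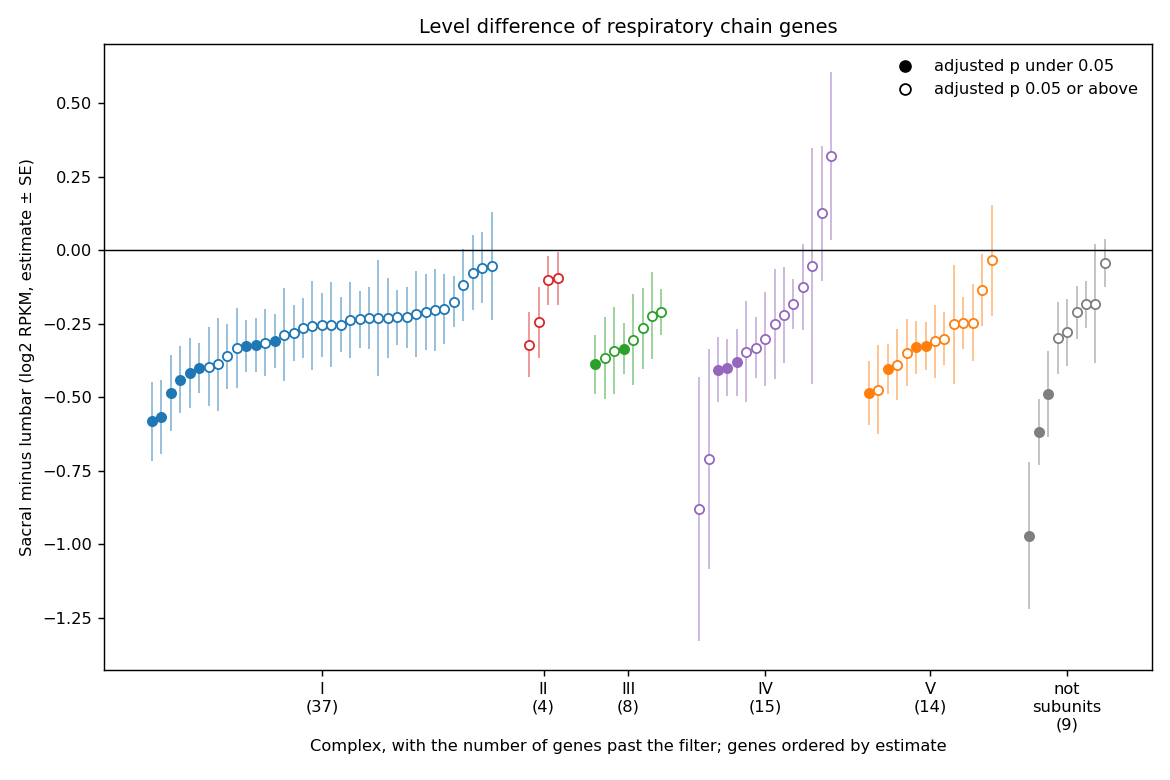
Sacral minus lumbar difference (log2 RPKM, estimate with its SE from limma, 10 donors) of the 87 members past the filter. They are ordered within each complex, with filled points at an adjusted p under 0.05. All but 2 points (Cox7c and Cox6b2) lie below 0, and the 21 filled points are spread over complexes I, III, IV and V and the genes that are not subunits.

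Complex I, the NADH dehydrogenase, had 9 of 37 genes called and a median difference of -0.25. Ndufa9, an accessory subunit at chr6:126771881-126799162 (mm9, minus strand), ranged from 4.04 to 5.46 log2 RPKM in lumbar DRG (median 5.07) and from 3.49 to 4.98 in sacral DRG (median 4.54). The groups overlapped, but the sacral value was the lower in all 10 donors, with a difference of -0.58 ± 0.13 (SE, adjusted p = 0.0138, limma). Ndufs8, an iron-sulfur core subunit at chr19:3908870-3912717 (mm9, minus strand), was tighter, with 4.57 to 5.11 in lumbar DRG (median 4.84) and 3.75 to 4.67 in sacral DRG (median 4.46). It was lower in 10 of 10 donors, by -0.40 ± 0.08 (adjusted p = 0.0084). The lowest sacral Ndufs8 value belonged to F7, and the next was 4.36 in M5. Ndufs5, an accessory subunit, fell by 0.57 ± 0.13 (adjusted p = 0.0115, lower in 9 of 10 donors), with 64.3% of its transcript also found elsewhere.

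The other called complex I genes, all accessory subunits, were Ndufb3 (-0.48), Ndufa11 (-0.44), Ndufa10 (-0.42), Ndufa8 (-0.32), Ndufc2 (-0.32) and Ndufb11 (-0.31). Of the 7 core subunits past the filter 1 was called (Ndufs8), and of the 30 accessory subunits 8. Just outside the threshold stood Ndufs7, the iron-sulfur subunit next to the quinone site, at -0.36 (adjusted p = 0.054), and just inside it Ndufb11 (adjusted p = 0.0477). The core subunits Ndufs1 (-0.23, adjusted p = 0.182) and Ndufv1 (-0.39, adjusted p = 0.14) did not pass. Both identifiers of Ndufb8 are among the 37 genes (-0.24 and -0.20, neither called), and the exons of the shorter lie wholly within exons of other genes, the longer Ndufb8 and Sec31b.

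Complex II, succinate dehydrogenase, had none of its 4 subunits called, with estimates from -0.10 (Sdha, the flavoprotein) to -0.32 (Sdhd, a membrane anchor, adjusted p = 0.083). In complex III 2 of 8 genes were called. Uqcrfs1, the Rieske iron-sulfur protein at chr13:30632177-30637231 (mm9, minus strand), lay between 4.36 and 5.20 in lumbar DRG (median 4.84) and between 3.91 and 4.75 in sacral DRG (median 4.46). The sacral value was the lower in every donor, and the difference was -0.33 ± 0.09 (adjusted p = 0.0254). Uqcrq, a small subunit, was the other, at -0.39 ± 0.10 (adjusted p = 0.0269). The core proteins Uqcrc1 (-0.34, adjusted p = 0.166) and Uqcrc2 (-0.21, adjusted p = 0.108) did not pass.

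Complex IV, cytochrome c oxidase, had 3 of 15 genes called, and none of the 3 is a tissue-restricted isoform. Cox5a, at chr9:57369039-57380231 (mm9, plus strand), went from 4.96 to 5.60 in lumbar DRG (median 5.36) and from 4.32 to 5.31 in sacral DRG (median 4.88). It was lower in 10 of 10 donors (-0.40 ± 0.10, adjusted p = 0.0186). Cox4i1, the general isoform of subunit 4, differed by -0.41 ± 0.11 (adjusted p = 0.0321) with 8 of 10 donors lower, and Cox6b1 by -0.38 ± 0.11 (adjusted p = 0.0471). Cox6a1 just missed at -0.33 (adjusted p = 0.056). The 2 members with estimates above 0 were both in this complex: Cox7c at 0.13 (adjusted p = 0.766) and Cox6b2, the testis isoform of subunit 6b, at 0.32 (adjusted p = 0.504).

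In complex V all 4 called genes were of the membrane part and stalk (4 of 9), and none of the 5 F1 subunits passed. Atp5o, the oligomycin sensitivity conferring protein that ties the stalk to F1, had lumbar values of 4.11 to 4.81 (median 4.52) and sacral values of 3.62 to 4.43 (median 4.15). It was lower in all 10 donors (-0.40 ± 0.09, adjusted p = 0.00897), with 85.0% of its transcript also found elsewhere. Atp5j2, subunit f, fell by 0.48 ± 0.11 (adjusted p = 0.0117, 10 of 10 donors), and the rotor ring genes Atp5g1 and Atp5g3 by 0.33 ± 0.09 and 0.32 ± 0.08. The F1 genes had estimates of like size: Atp5b was lower in 10 of 10 donors at -0.31 ± 0.12, yet its adjusted p was 0.136. Whether membrane and F1 genes differ in their level difference was not tested.

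Among the 9 genes that are not subunits, 3 were called. Ndufaf2, a complex I assembly factor at chr13:108842784-108948819 (mm9, minus strand), ranged from 2.78 to 3.71 in lumbar DRG (median 3.33) and from 1.71 to 3.37 in sacral DRG (median 2.88). It had the smallest adjusted p of all members (-0.62 ± 0.11, adjusted p = 0.00305), and M8 was the only donor in which the sacral value was the higher. Atp5s differed by -0.49 ± 0.15 (adjusted p = 0.0498), at the edge of the threshold. Atp5l-ps1 had the largest estimate, -0.97 ± 0.25 (adjusted p = 0.0254), while Atp5l itself was at -0.03 (adjusted p = 0.927), so the 2 nearly identical sequences printed above gave different values.

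Medians over the genes of a complex, taken within each library, were lower at the sacral level in most donors. The complex I median went from 3.29 to 3.91 in lumbar DRG and from 2.96 to 3.65 in sacral DRG, and 9 of 10 donors had their lower value at the sacral level. The exception was F10, with a difference of 0.005. Complexes II and III were lower in 8 of 10 donors each, and complexes IV and V in 7. In M3, M8 and F9 the sacral medians of complexes IV and V were the higher. Donor differences ran widest for complex IV, from -0.93 to 0.62, and narrowest for complex II, from -0.46 to 0.15. These medians are given without a test.

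**Figure D2:**
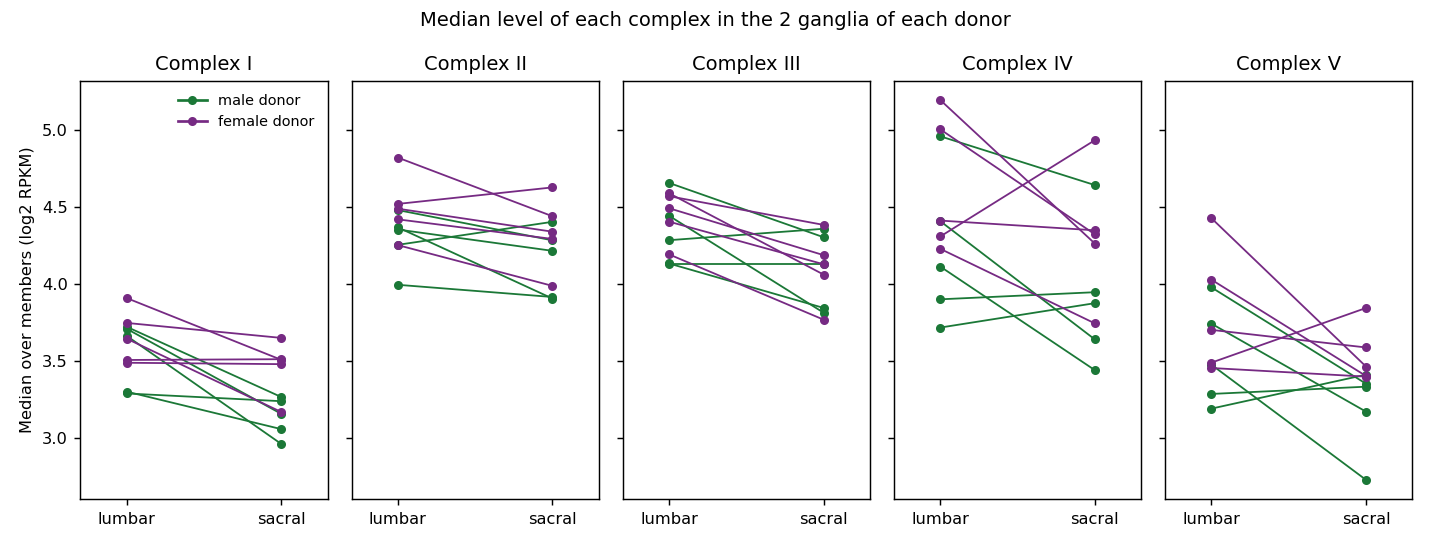
Median log2 RPKM over the genes of each complex in the lumbar and the sacral library of each donor, joined by a line (green male, purple female; 10 donors). Lines fall from lumbar to sacral in 9 of 10 donors for complex I, 8 for complexes II and III, and 7 for complexes IV and V.

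Within each sex the direction was the same. Estimates were below 0 for 86 of 87 members in males (median -0.30) and for 78 of 87 in females (median -0.26). With 5 donors per sex 1 member was called in males and 0 in females. These counts have no share over all genes beside them and are not read as a result about the members.

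Some markers of neurons and glia were also lower in sacral DRG. All 8 sensory neuron markers had estimates below 0 (median -0.36), 1 of them called (Snap25, -0.60, adjusted p = 0.0162), and their summed level was 699 to 1500 RPKM in lumbar DRG (median 1280) and 352 to 1290 in sacral DRG (median 949). Of 5 markers of large myelinated neurons 2 were called lower (Pvalb, -1.33, and Nefh, -0.86), while Spp1 was at 0.70 (adjusted p = 0.227, lower in 3 of 10 donors), with sums of 61.7 to 137 RPKM in lumbar and 50.8 to 87.8 in sacral DRG. Schwann cell and satellite glia markers had 4 of 8 called, all lower (median -0.37; sums of 233 to 340 RPKM in lumbar and 161 to 278 in sacral DRG). In the other direction, 3 of 6 fibroblast and meningeal markers (sums of 190 to 438 RPKM in lumbar and 264 to 590 in sacral DRG), 2 of 4 endothelial markers (22.3 to 47.2 and 32.2 to 57.8 RPKM) and 1 of 3 cartilage markers (Col2a1, 0.80; 4.54 to 15.5 and 6.0 to 27.1 RPKM) were called higher in sacral DRG. Skeletal muscle had 0 of 11 called, with a median of -0.50 and sums of 26.3 to 525 RPKM in lumbar and 25.9 to 271 in sacral DRG. The part of these cells in the respiratory chain difference was not tested. With the mean muscle level as a covariate 28 members were called, all lower in sacral DRG, against 10.46% of all genes.

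Other genes of mitochondrial energy metabolism were read from the same fit. The citric acid cycle and pyruvate dehydrogenase had 15 of 16 estimates below 0 and a median of -0.24, with 2 called: Idh3b, a subunit of isocitrate dehydrogenase (-0.26, adjusted p = 0.0379), and Dld, the shared dihydrolipoamide dehydrogenase (-0.32, adjusted p = 0.0466), both lower in 10 of 10 donors. Of 74 mitochondrial ribosomal protein genes 9 were called, all lower (median -0.21). Assembly factors had 1 of 27 called, Ndufaf2, which is also a member (median -0.15). The electron carrier Cycs was at -0.25 (adjusted p = 0.195). The 13 subunits encoded in mitochondrial DNA had 0 called and a median of 0.05, and so had 13 regulators of mitochondrial genes such as Ppargc1a, Nrf1 and Tfam. Cytoplasmic ribosomal protein genes had 1 of 87 called and a median of -0.06.

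Few members were called between the sexes. In lumbar DRG 0 of 87 passed (smallest adjusted p = 0.183), against 0.330% of all genes, and 17 members had an unadjusted p under 0.05. In sacral DRG 1 member passed, against 1.01% of all genes, and 33 had an unadjusted p under 0.05. The counts at an unadjusted p have no share over all genes beside them and are not read as a result about the members. The member called in sacral DRG was Ndufa1, an X-linked accessory subunit of complex I at chrX:34727583-34731158 (mm9, minus strand). Its sacral values were 4.26, 4.91, 4.71, 4.13 and 4.63 log2 RPKM in males M1, M3, M5, M7 and M8, and 5.25, 5.33, 5.80, 5.82 and 5.32 in females F3, F7, F8, F9 and F10. The sexes did not overlap, and females were higher by 0.98 ± 0.24 (adjusted p = 0.0493, limma). In lumbar DRG the difference of Ndufa1 was 0.35 ± 0.24 (adjusted p = 0.748), with overlapping values.

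The sex result was close to its threshold. Leaving out 1 donor gave 0 to 5 called members in sacral DRG, with 0 without M1, M3, M7, F8, F9 or F10, 2 without F7 and 5 without M5. The share over all genes moved too: 0.38% to 0.55% where 0 members were called, 0.64% without F7 and 3.05% without M5. With mt-Rnr2 as a covariate the share called over all genes rose from 1.01% to 4.67%, and 10 members passed there, all higher in females: Cox6c (0.85, adjusted p = 0.0078), Ndufa1 (0.94, adjusted p = 0.0102), Atp5h, Ndufa3, Ndufb9, Cox7a2l, Ndufs6, Cox4i1, Ndufaf2 and Ndufa2. Estimates were higher in females for 65 of 87 members in sacral DRG (median 0.34, all genes -0.03) and for 68 in lumbar DRG (median 0.22, all genes 0.02). The test of the difference between these sex effects, the interaction of sex and level, called 0 of 14529 genes (0%) in limma's fit. At an unadjusted p under 0.05 it had 470 genes and 2 members, and the smallest adjusted p of a member was 0.995.

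Libraries differed widely in mt-Rnr2, the large ribosomal RNA of the mitochondrion, and the members were read against it. Its level ran from 16.22 to 18.56 log2 RPKM in lumbar DRG (median 16.79, highest in M5) and from 15.89 to 17.86 in sacral DRG (median 17.11, lowest in F3). It did not separate the levels: the sacral value was the lower in 6 of 10 donors and the mean difference was -0.03 (two-sided exact sign permutation test, p = 0.881). The slope of each gene on mt-Rnr2 within the 4 groups was then fitted with limma, as log2 change per log2 unit of mt-Rnr2.

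Many genes moved with mt-Rnr2, and the members did so in both directions. Of 14492 genes 49.0% passed, 15.1% with a positive and 33.9% with a negative slope, and the median slope was -0.10. Among the 87 members 48 passed, 28 positive and 20 negative, with a median of 0.09. Both signs occurred in most complexes. Complex IV had 6 positive and 1 negative slopes among 15 genes, complex II 0 positive and 2 negative among 4, complex III 3 of each among 8, complex I 12 positive and 7 negative among 37, and complex V 6 positive and 4 negative among 14.

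The steepest positive slopes were those of small subunits. Cox7c had the steepest slope, 0.75 ± 0.13 (SE, adjusted p = 0.000232), with levels from 0.38 (lumbar M8) to 2.54 (sacral F7). Cox7b, another small subunit of complex IV, rose by 0.68 ± 0.10 (adjusted p = 5.34e-05) and Ndufb4 of complex I by 0.62 ± 0.13. Cox6b2 (0.70 ± 0.21), Atp5l (0.59 ± 0.12), Atp5e (0.58 ± 0.15), Ndufa4 (0.57 ± 0.10) and Cox6c (0.56 ± 0.09) were alike.

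The steepest negative slopes included large catalytic subunits. Ndufv1, which oxidises NADH, had a slope of -0.61 ± 0.08 (adjusted p = 2.81e-05), with its lowest values in sacral F7 (2.12) and lumbar M5 (2.29) and its highest in lumbar M1 (3.87). Uqcrc1 had -0.47 ± 0.10 (adjusted p = 0.00104). The alpha and beta subunits of F1, Atp5a1 and Atp5b, had -0.46 ± 0.07 and -0.42 ± 0.08, and the shorter central stalk subunit Atp5d -0.43 ± 0.07. The accessory subunits Ndufa9 and Ndufa10 (-0.41 each), the core subunit Ndufs1 (-0.34) and Sdha (-0.27) also passed. In lumbar M5, the library highest in mt-Rnr2, Atp5b had 7.43 log2 RPKM while the other lumbar males had 8.29 to 8.38.

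**Figure D3:**
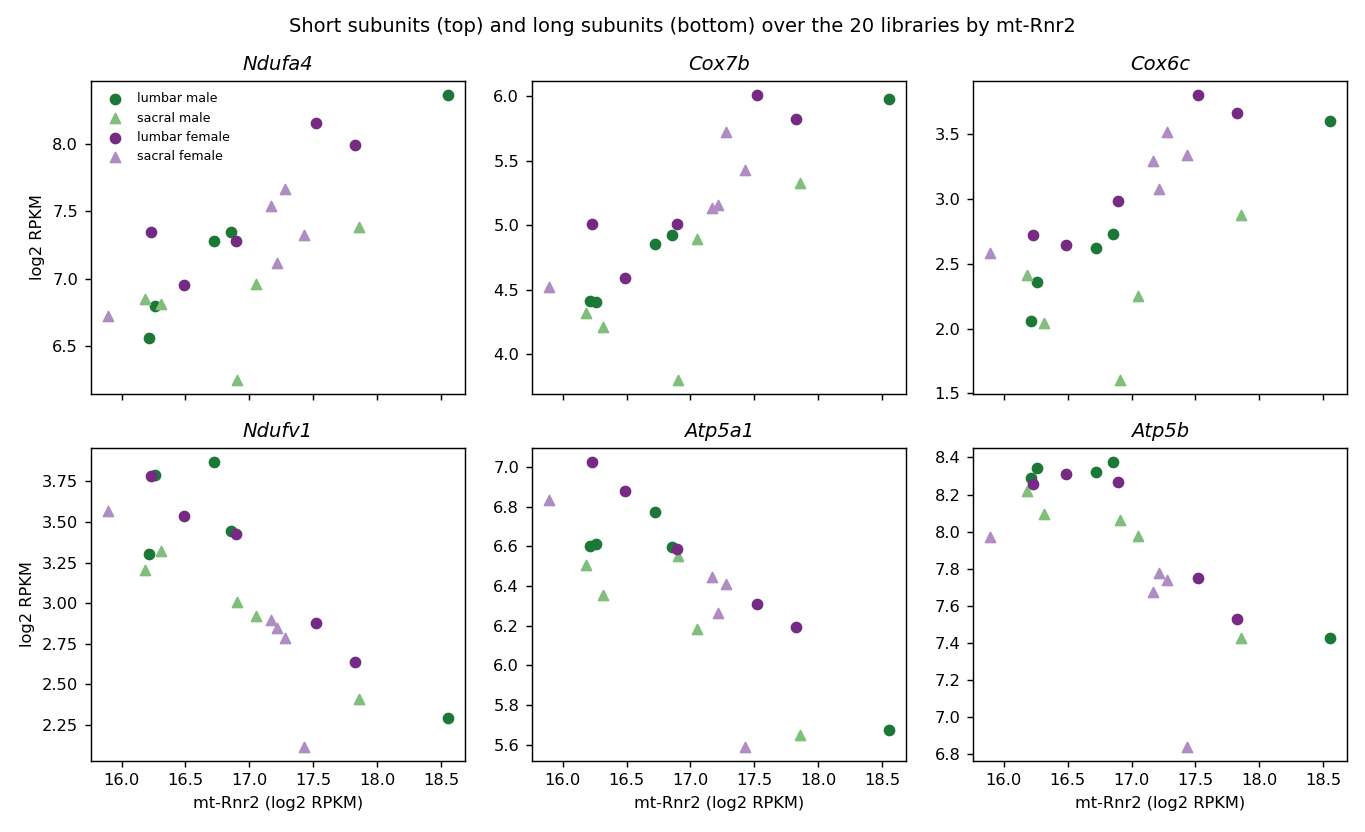
Level (log2 RPKM) of 6 subunits in each of the 20 libraries against mt-Rnr2 (log2 RPKM), with circles for lumbar and triangles for sacral DRG, green for males and purple for females. The short Ndufa4, Cox7b and Cox6c climb from left to right, and the long Ndufv1, Atp5a1 and Atp5b fall, with lumbar M5 at the far right.

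Slope and coding length went together. Over the 78 subunits the Spearman correlation of slope with coding length was -0.695, against -0.104 over 12123 protein-coding genes. This is a description across genes of the same 20 libraries, and genes are not independent replicates. Subunits are short, with a median coding length of 420 bases against 1386, and 74.4% of them have at most 600 bases against 14.7% of protein-coding genes. This limit of 600 bases was set after the values were seen. Of the 58 subunits up to it 26 had a called positive slope and 4 a negative one (median 0.26), and of the 20 longer ones 1 was positive and 13 negative (median -0.27). For protein-coding genes the shares were 20.5% positive and 21.3% negative up to 600 bases, and 10.4% and 39.2% above. The same split runs through complexes I and V: 4 of 7 core complex I subunits had negative slopes and 1 a positive one, against 3 and 11 of the 30 accessory subunits, and 3 of 5 F1 subunits had negative slopes and 1 a positive one, against 1 and 5 of the 9 membrane and stalk subunits.

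**Figure D4:**
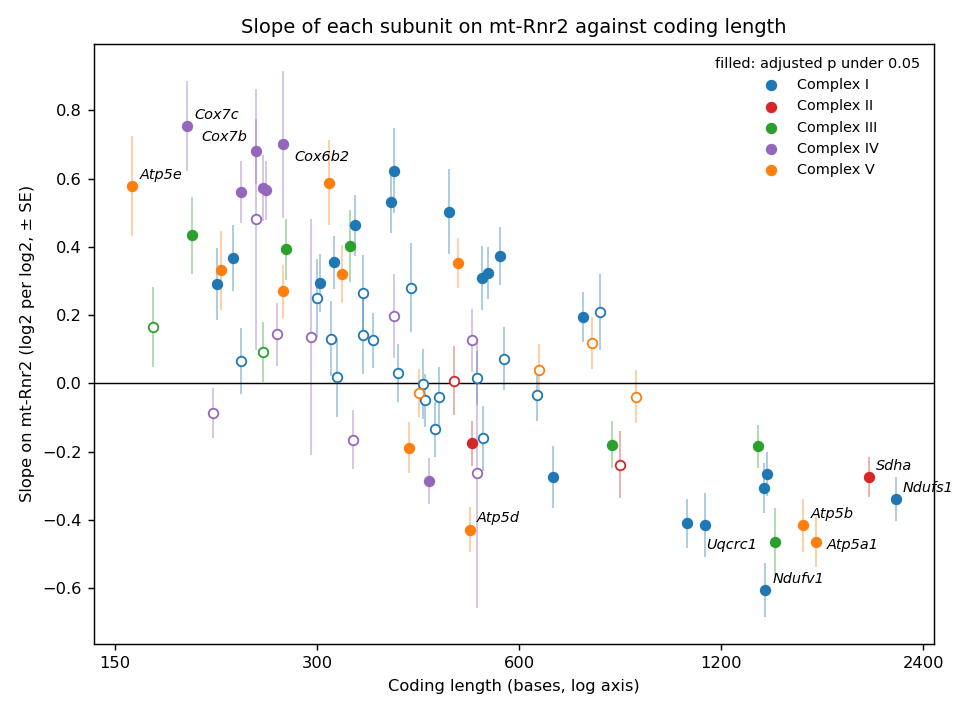
Slope on mt-Rnr2 (log2 per log2, ± SE) of the 78 subunits against coding length (bases, log axis), coloured by complex, filled at an adjusted p under 0.05. Subunits up to 600 bases lie mostly above 0 and those over 600 bases mostly below it.

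The correlation with coding length was -0.707 in lumbar libraries alone, -0.636 in sacral libraries alone and -0.628 without donor M5. The calls themselves were less steady. Without M5 26 members were called (14 positive, 12 negative) and 29.68% of all genes. In sacral libraries alone 2 members were called (Ndufv1 and Ndufv3, both negative) and 3.57% of all genes. Scaling to reads outside mitochondrial genes moved the median slope of all genes from -0.103 to 0.098. It gave 46 positive and 7 negative calls among the members, with 43.36% of all genes called and 13.43% called negative. The sign of a slope and the number of negative calls thus depend on the scaling, which moves the slopes of all genes alike. With this scaling the median slope was 0.458 for subunits up to 600 bases and -0.069 for longer ones. In sacral libraries alone these medians were 0.078 and -0.345. Transcript length (-0.596), mean level (-0.304) and GC content (-0.242; -0.204 over protein-coding genes) were also related to the slope over the 78 subunits.

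Other lists moved with mt-Rnr2 as well. All 8 sensory neuron markers had called negative slopes (median -0.54), and the citric acid cycle and pyruvate dehydrogenase 13 of 16 (median -0.30, none positive). Cytoplasmic ribosomal protein genes, which are also short, had 41 positive and 2 negative slopes of 87 (median 0.23), and mitochondrial ribosomal ones 12 and 6 of 74. The part of neurons, RNA quality or amplification in these slopes was not tested.

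The difference between spinal levels was only weakly related to length over the subunits. The correlation of the sacral minus lumbar difference with coding length was -0.074 over the 78 subunits (0.256 over protein-coding genes). The median difference was -0.27 for the 58 subunits up to 600 bases, 13 of them called, and -0.28 for the 20 longer ones, 5 of them called. Protein-coding genes up to 600 bases had a median of -0.15, with 7.5% called lower, and longer ones -0.04 with 3.47%. Of the 21 members called between levels 14 had no called slope on mt-Rnr2, 5 a negative one and 2 a positive one. Over all genes 33.9% had a called negative slope and 15.1% a positive one. The same overlap over all genes called between levels is not given. With mt-Rnr2 as a covariate 28 members were called between levels, against 9.82% of all genes.

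Complex IV has paired isoforms, 1 for most tissues and 1 for heart and skeletal muscle, testis or lung. The general isoforms prevailed: Cox6a1 had 85.2 RPKM and Cox6a2 1.5, Cox7a2 20.9 and Cox7a1 1.24, Cox8a 92.1 and Cox8b 0.48, Cox4i1 80.2 and Cox4i2 1.10, Cox6b1 68.8 and Cox6b2 3.09. None of the tissue isoforms past the filter was called between levels or sexes. Their spread was large, and Cox7a1 ranged from -4.32 (sacral M7) to 1.84 (sacral F7).

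The muscle isoform Cox6a2 followed the muscle genes in lumbar DRG. It ranged from -1.06 to 2.77 log2 RPKM there (median 0.33) and correlated with the mean of the skeletal muscle genes over the 10 lumbar libraries (Pearson r = 0.843, permutation p = 0.00256, adjusted over 12 relations p = 0.0307; Spearman rho = 0.842, permutation p = 0.0039, adjusted p = 0.026). Without F8 and F3, the libraries farthest from the median muscle level, r was 0.511, so the relation rests in part on them. Across sacral DRG the same relation had r = 0.598 (permutation p = 0.0656, adjusted p = 0.157) and rho 0.648 (permutation p = 0.0489, adjusted p = 0.147), with r = 0.345 without M7 and M8. Cox8b, at 27 reads or fewer in every library, had r = 0.763 (permutation p = 0.00992, adjusted p = 0.0595) and rho = 0.83 (permutation p = 0.00434, adjusted p = 0.026) in lumbar DRG, and r = 0.73 without F8 and F3. In sacral DRG it had r = 0.721 (permutation p = 0.0199, adjusted p = 0.0796) and rho = 0.806 (permutation p = 0.00732, adjusted p = 0.0293), and r = 0.536 without M7 and M8.

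Cox7a1, the other muscle isoform, gave no relation that passed, with r = 0.218 (permutation p = 0.542, adjusted p = 0.615) and rho = 0.248 (permutation p = 0.491, adjusted p = 0.589) in lumbar DRG and r = -0.599 (permutation p = 0.0623, adjusted p = 0.157) and rho = -0.37 (permutation p = 0.297, adjusted p = 0.492) in sacral DRG. The latter fell to r = -0.205 without M7 and M8. The general isoforms Cox6a1, Cox7a2 and Cox8a had r from -0.489 to 0.456, and none passed.

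**Figure D5:**
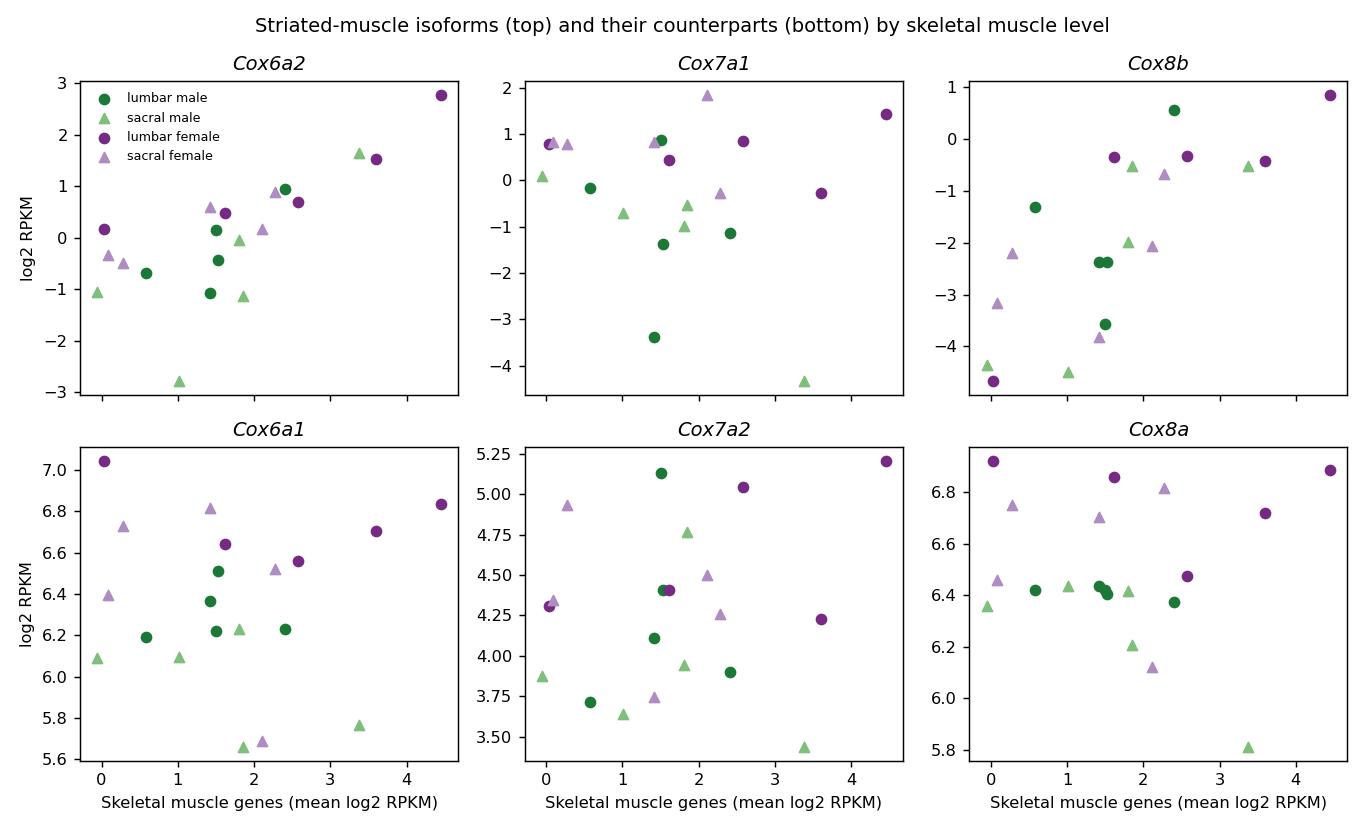
Level (log2 RPKM) of muscle isoforms and general isoforms of complex IV in the 10 lumbar and 10 sacral libraries against the mean of the skeletal muscle genes (mean log2 RPKM), with circles for lumbar and triangles for sacral DRG, green for males and purple for females, and libraries without a Cox8b read drawn at 0.5 reads. Cox6a2 and Cox8b are highest toward the right, where lumbar F8 stands at 4.45, and the general isoforms show no such climb.

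Below the filter were 5 members. Cox8c, the testis isoform of subunit 8, had 0 to 2 reads and no value in 19 of 20 libraries. Cox7b2, the testis isoform of subunit 7b, had 0 to 23 reads with no value in 6 libraries, and Cox8b 0 to 27 reads with no value in 4. Ndufa4l2, a hypoxia-inducible relative of Ndufa4, had 7 to 51 reads and was lower at the sacral level in 5 of 10 donors. Atp5g2, a rotor ring gene whose whole transcript (100%) is also found elsewhere, had 1 to 32 reads and was lower in 3 of 10. These counts cover few reads, and no test was made.

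Promoter windows were read for all members that had one. RefSeq windows (GRCm38.p6, 250 bases before to 50 after the start) were found for 74 of the 91 members matched by symbol, 64 of them subunits past the filter, and for 27025 genes in all. Respiratory chain promoters are known for sites of NRF1, YY1, ETS factors such as GABP, Sp1, CREB and ERR, and each core was searched on both strands. The NRF1 core GCGCATGCG was in 10.9% of the 64 subunit windows and 1.95% of all windows, and the YY1 core AAGATGGCG in 10.9% and 1.64%. The ETS core CCGGAAGT was in 7.81% and 4.31%, the Sp1 box GGGCGG in 39.1% and 38.2%, the CRE TGACGTCA in 6.25% and 2.03%, and the ERR core TCAAGGTCA in 2 of the 64 and 0.466%.

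Among the 16 subunits with a window that were called lower in sacral DRG, 2 held the NRF1 core, 2 the YY1 core, 3 the Sp1 box, 3 the CRE, 1 the ERR core and 0 the ETS core. The windows of 2 of those with a CRE are shown, 5′ to 3′ on the strand of the gene, with the matched letters in capitals: Ndufa11 (chr17:56717512-56717811, plus strand), with a CRE and an NRF1 core that matches on both strands with overlap, and Ndufa10 (chr1:92473709-92474008, minus strand), with 2 Sp1 boxes and a CRE.
Ndufa11: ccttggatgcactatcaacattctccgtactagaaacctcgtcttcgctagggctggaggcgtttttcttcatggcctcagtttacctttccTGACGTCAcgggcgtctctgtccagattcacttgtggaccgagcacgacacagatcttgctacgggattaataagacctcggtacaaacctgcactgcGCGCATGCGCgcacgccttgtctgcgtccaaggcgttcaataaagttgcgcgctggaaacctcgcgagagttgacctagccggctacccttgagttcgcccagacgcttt
Ndufa10: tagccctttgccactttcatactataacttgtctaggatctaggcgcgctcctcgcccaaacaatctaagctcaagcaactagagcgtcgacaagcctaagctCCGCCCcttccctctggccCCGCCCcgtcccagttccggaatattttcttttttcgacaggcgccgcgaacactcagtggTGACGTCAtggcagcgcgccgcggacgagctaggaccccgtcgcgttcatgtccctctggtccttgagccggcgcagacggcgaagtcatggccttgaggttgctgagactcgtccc
A match is a run of letters in these windows and was not linked to binding or to the level difference.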

How the data were processed

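Whole DRG of E18.5 embryos were profiled by bulk RNA-seq (Ovation amplification of total RNA, Nextera XT libraries, HiSeq2500). The authors aligned reads with Subread to mm9, counted unique reads per Ensembl gene with featureCounts (strand setting not stated), and deposited log2 RPKM values after TMM scaling (edgeR 3.12.1) and voom (limma 3.26.9). Per the labels, the processing notes also name GRCh37.p7. Every deposited library has a median of 0.930302 log2 RPKM, though the paper names no step that sets the medians equal. Blank entries were set to the value of 0.5 reads. Reads per gene were recovered from the steps of the values and the gene lengths, and 98.27% of values were whole within 0.05 reads. They served depth, the counts of reads below the filter and alternatives only.

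Genes with a mean of at least 1 RPKM in 1 or more groups were tested with limma 3.58.1 (empirical Bayes with trend, two-sided, Benjamini-Hochberg over all genes tested, threshold 0.05). The fit had 4 group means and the donor as a block (duplicateCorrelation, correlation 0.342, 0.106 for the slopes). Both levels come from the same embryo, which is the source of the pairing. Deviations of a donor's libraries from their group means correlated from -0.166 (M8) to 0.677 (M5), above 0.1 in 6 of 10 donors. Nothing says that libraries were prepared more than once per ganglion pool. The p-values thus measure the spread between embryos together with that of dissection and library preparation, which cannot be told apart. For the level difference the block takes out the part that both libraries of a donor share. Slopes used mt-Rnr2 centred within group and leave out mitochondrially encoded genes. Isoforms were compared with muscle genes by permutation (100000 resamples, two-sided). Counts and floors cover counting error only. The fit was tested on simulated data.

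Coding lengths, coordinates and copies of transcripts came from GENCODE M1 on mm9, promoters from RefSeq. Members and lists were chosen with earlier results of these data known. Genes were named by a rule: called members with the 12 largest level differences, the 5 largest slopes of each sign, members called for sex or interaction, preset reference subunits, all tissue isoforms with their counterparts, the highest and lowest member of each complex, and members below the filter. Others (Cox8a and the remaining called members, those next to the threshold, Uqcrc2, Ndufv3 and genes called for sex with mt-Rnr2) were named after their values were seen. Alternatives were the block, donors left out, filters, an added constant, weights, covariates, scalings and voom.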

Additional observations from a re-analysis of the deposited data

Results flagged for a closer look

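A sample far from the other 4 of its group was seen in 14 of 208 groups of 5 looked at, where chance gives about 10.4 (1 in 20). The 52 items come from the same libraries, and many genes among them were named for their slopes or level differences. They are not independent, so the 10.4 is only a rough guide. Lumbar M5 accounted for 7 of the 14. Its mt-Rnr2 stood at 18.56 log2 RPKM (other lumbar males 16.22 to 16.86), and the median of its 20 shortest subunits minus that of its 20 longest was 0.13 (others -1.28 to -0.88). In the same library 5 subunits were low: Atp5b at 7.43 (others 8.29 to 8.38), Atp5a1 at 5.67 (6.60 to 6.77), Ndufs1 at 3.03 (3.83 to 4.07), Ndufa10 at 3.72 (4.66 to 4.90) and Atp5d at 4.70 (5.42 to 5.72). Uqcrfs1 stood apart in sacral M5, at 4.24 (other sacral males 4.62 to 4.75).

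Sacral F7 was far below the other sacral females in 4 genes: Atp5b at 6.84 (others 7.67 to 7.97), Ndufs8 at 3.75 (4.42 to 4.67), Sdhb at 2.59 (3.24 to 3.50) and Ndufa11 at 2.09 (2.14 to 2.16), the last within a very narrow group. This library also had the lowest mean of the sensory neuron markers, 4.573 log2 RPKM. Sacral F3 had the lowest mt-Rnr2, 15.89 (others 17.17 to 17.43). Cox7a1 was at -4.32 in sacral M7 (others -0.99 to 0.10). The level counts without M5 or F7 are 8 and 10 called members (3.36% and 3.6% of all genes), and the slope count without M5 is 26 (29.68%).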

How the results depend on the processing

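The count of members called between levels (21) was 1 without the replicate block (1.06% of all genes in either direction) and 8 with no filter (1.75%). It was 8 with scaling to reads outside mitochondrial genes (5.35%) and 4 with scaling to all recovered reads (4.45%). For these settings, in this order, 0.71%, 0.97%, 2.75% and 1.05% of all genes were called lower. The count was 6 to 22 when 1 donor was left out (2.77% to 11.05%). The cause of these changes was not tested. Every called member was lower in sacral DRG in every alternative, and the median difference ran from -0.333 to -0.197. Members called for sex were 1 in lumbar DRG with mt-Rnr2 as a covariate (1.2% of all genes). In sacral DRG they were 0 with no filter (0.32%), 10 with that covariate (4.67%) and 0 to 5 without 1 donor (0.38% to 3.05%). The interaction had 0 members throughout. For slopes, 26 to 48 members were called when 1 donor was left out (29.68% to 49.78% of all genes), with 14 to 30 positive and 12 to 20 negative. Sacral libraries alone gave 2 members (0 positive, 2 negative; 3.57% of all genes called).  Scaling to reads outside mitochondrial genes gave 46 positive and 7 negative, with 43.36% of all genes called and 13.43% called negative. Donor-block use changed no other count by over 1.5 times.

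With F8 or F3 left out of the lumbar libraries, or M7 or M8 of the sacral ones (no others were tried), r with muscle genes was 0.707 to 0.821 for lumbar Cox6a2, and it crossed 0 for lumbar Cox7a1 (-0.061 to 0.251), Cox6a1 (-0.096 to 0.1) and Cox8a (-0.159 to 0.123) and for sacral Cox7a2 (-0.439 to 0.037). The level difference of Cox7a1, not called, turned positive with log2(RPKM + 1) (0.009), sample weights (0.310), scaling to reads outside mitochondrial genes (0.006) or to all reads (0.015), and ran from -0.171 to 0.178 without 1 donor (positive without M5, M7 or F8). Scaling to reads outside mitochondrial genes raises the slopes of all genes alike, which by construction put those of Uqcrfs1 (0.021) and Atp5g1 (0.012) above 0. That of Cox4i1, not called, was -0.098 in sacral libraries alone. Over 60 single-gene results, 1023 of 1206 alternative values kept direction and side of the threshold, 154 lost a call, 19 gained one and 10 changed sign. Depth limits Cox8b, Cox7b2, Cox8c, Ndufa4l2 and Atp5g2 most, and unique mapping limits Atp5l and Atp5l-ps1.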
